A study of Mus musculus with 8 samples.

Results

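The 10 genes described here are transcription factors and direct outputs of the integrated stress response: Atf4, Atf5, Ddit3, Cebpb and Nupr1 on the side of the factors and cofactors, and Trib3, Chac1, Asns, Sesn2 and Ddit4 on the side of the outputs. They were taken by gene symbol from a table of raw read counts for 15288 genes, and all 10 were found and passed the filter on low counts. The cells are a mouse inner medullary collecting duct line (IMCD), which comes from the last part of the renal tubule. Confluent cultures spent 12 h in DMEM without serum, either with no added NaCl (control, 4 libraries) or with 100 mmol NaCl (4 libraries), and total RNA was sequenced in bulk. Both groups were therefore without serum for the whole period. The labels name no genotype or separate cultures, and they give the NaCl amount without a volume. Libraries are numbered 1 to 8 across the study, with control replicates 1 to 4 and NaCl replicates 5 to 8.

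The integrated stress response begins when a kinase phosphorylates the translation factor eIF2, which lowers general protein synthesis and raises translation of a few mRNAs, Atf4 and Atf5 among them. The ATF4 protein binds DNA together with C/EBP family partners and switches on genes for amino acid supply, for feedback and, through CHOP (the product of Ddit3), for cell death. Because ATF4 is controlled largely by translation, its mRNA level and its activity are separate quantities, and the libraries measure mRNA only. In renal cells the pathway is known for responses to amino acid shortage and to stress of the endoplasmic reticulum.

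The DNA element through which ATF4 acts is the C/EBP-ATF response element, searched here as TGATGNAA on both strands of the 250 bases before each start site in RefSeq (GRCm38.p6). It was found for 3 of the 10 members (Chac1, Asns and Nupr1), and 3.45% of 32851 such windows in the genome held it. The tonicity-responsive enhancer, bound by NFAT5, was searched as well because the cells were under salt. Its core TGGAAA was found for Atf4 and Nupr1 (18.6% of all windows). Its full consensus, which contains that core, was found for Nupr1 and no other member (4.31% of all windows). The short site TGACG, bound by CREB and ATF factors, was found for Asns, Atf4, Cebpb, Chac1 and Trib3 (17.8% of all windows), and CCAAT for 6 members (33.8%). Stretches are shown for the 3 members with a C/EBP-ATF match, and for Nupr1 also around its tonicity-responsive enhancer matches. They read 5′ to 3′ along the gene's strand, with the C/EBP-ATF or tonicity-responsive enhancer matches in capitals and other motifs left in lower case.
Chac1, chr2:119351022-119351121, plus strand, C/EBP-ATF match on the opposite strand, 193 to 186 bases before the start: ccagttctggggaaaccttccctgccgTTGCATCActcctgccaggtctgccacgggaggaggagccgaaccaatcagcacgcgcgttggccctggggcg
Asns, chr6:7693214-7693243, minus strand, C/EBP-ATF match on the gene's strand, 23 to 16 bases before the start: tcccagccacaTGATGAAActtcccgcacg
Nupr1, chr7:126625562-126625591, minus strand, C/EBP-ATF match on the opposite strand, 110 to 103 bases before the start: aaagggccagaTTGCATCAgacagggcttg
Nupr1, chr7:126625678-126625707, minus strand, a pair of tonicity-responsive enhancer matches facing in opposite directions: gcgAGAGCTTTCCAcgTGGAAAAACACagc
The Asns and Nupr1 stretches lie before the RefSeq start but within an exon of a longer transcript in the GENCODE M21 annotation, and the Chac1 stretch lies in no annotated exon of the gene. A match is a description of letters; no binding was measured.

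Depth was similar across libraries, at 35.3 to 47.6 M counts, with control replicate 1 the deepest and NaCl replicate 5 the shallowest. Mitochondrially encoded genes took 1.32 to 1.65% of counts. Of 12 collecting duct markers 7 averaged at least 1 CPM (the counts-per-million scale, on TMM-adjusted library totals, used throughout), led by Krt7, Krt18, Tfcp2l1 and Krt8. Aqp2 and Cdh1 were near 0, with at most 15 and 30 counts in any library. Fibroblast collagen genes were abundant in both groups, and the summed level of 5 measured fibroblast markers was 3091 to 3592 CPM in control and 2756 to 3196 CPM with NaCl. The sum of the leukocyte markers Ptprc and Cd68 was 5.95 to 7.19 CPM in control and 14.9 to 15.3 CPM with NaCl; the mean of Ptprc was 4.05 and 13.5 CPM and that of Cd68 2.41 and 1.69 CPM. Endothelial markers stayed under 0.87 CPM in sum, and the sum of 4 proximal tubule markers was 274 to 327 CPM in control and 1012 to 1039 CPM with NaCl. Of these, Aqp1 had means of 118 and 858 CPM and Lrp2 of 185 and 162 CPM, while Cubn and Slc5a2 were at most 2.45 CPM. Their part in the results on the members was not tested. In a bulk sample a smaller share of cells with a transcript and less of it per cell cannot be told apart.

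Positions are on GRCm38 as in GENCODE M21. Levels were compared between members per kilobase of merged exon in the control group. Ddit4 was highest at 130.2 ± 9.86 CPM per kb (SD, n = 4), followed by Atf4 at 98.3 ± 4.02 CPM per kb. Atf5 (65.6 ± 5.04), Nupr1 (63.6 ± 1.03), Cebpb (56.5 ± 1.95) and Asns (42.4 ± 3.41 CPM per kb) lay in the middle. Trib3 (16.2 ± 1.01), Sesn2 (15.7 ± 0.483), Chac1 (13.7 ± 2.18) and Ddit3 (10.04 ± 1.08 CPM per kb) were lowest. In that order the control libraries of Atf5 and Nupr1 overlapped, and so did those of Trib3, Sesn2 and Chac1, so these neighbours were not separated by their spread. The merged length of Nupr1 includes the longer transcript named above, which lowers its value on this scale. With NaCl, Nupr1 (111 ± 5.28 CPM per kb) stood above Atf4 (91.8 ± 1.36) and was not separated from Ddit4 (137 ± 23.7 CPM per kb), whose NaCl libraries lay on both sides of it.

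With NaCl 6 of the 10 members fell and 1 rose in the quasi-likelihood test of edgeR, at a threshold of 0.05 on the adjusted p-value, and 3 did not pass. Over all 14024 genes tested, 34.1% passed, 17.2% lower and 16.9% higher with NaCl. The median log2 fold change of the members was -0.14, where that of all genes tested was 0.0029. Asns fell most, to 0.684 of its control level, and Nupr1 rose 1.75-fold. No member fell by 1.5-fold or more; 2.85% of all genes did so with an adjusted p-value under 0.05. The 4 libraries of a group lay wholly above the 4 of the other for 6 members, beside 33.4% of all genes tested.

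**Figure D1:**
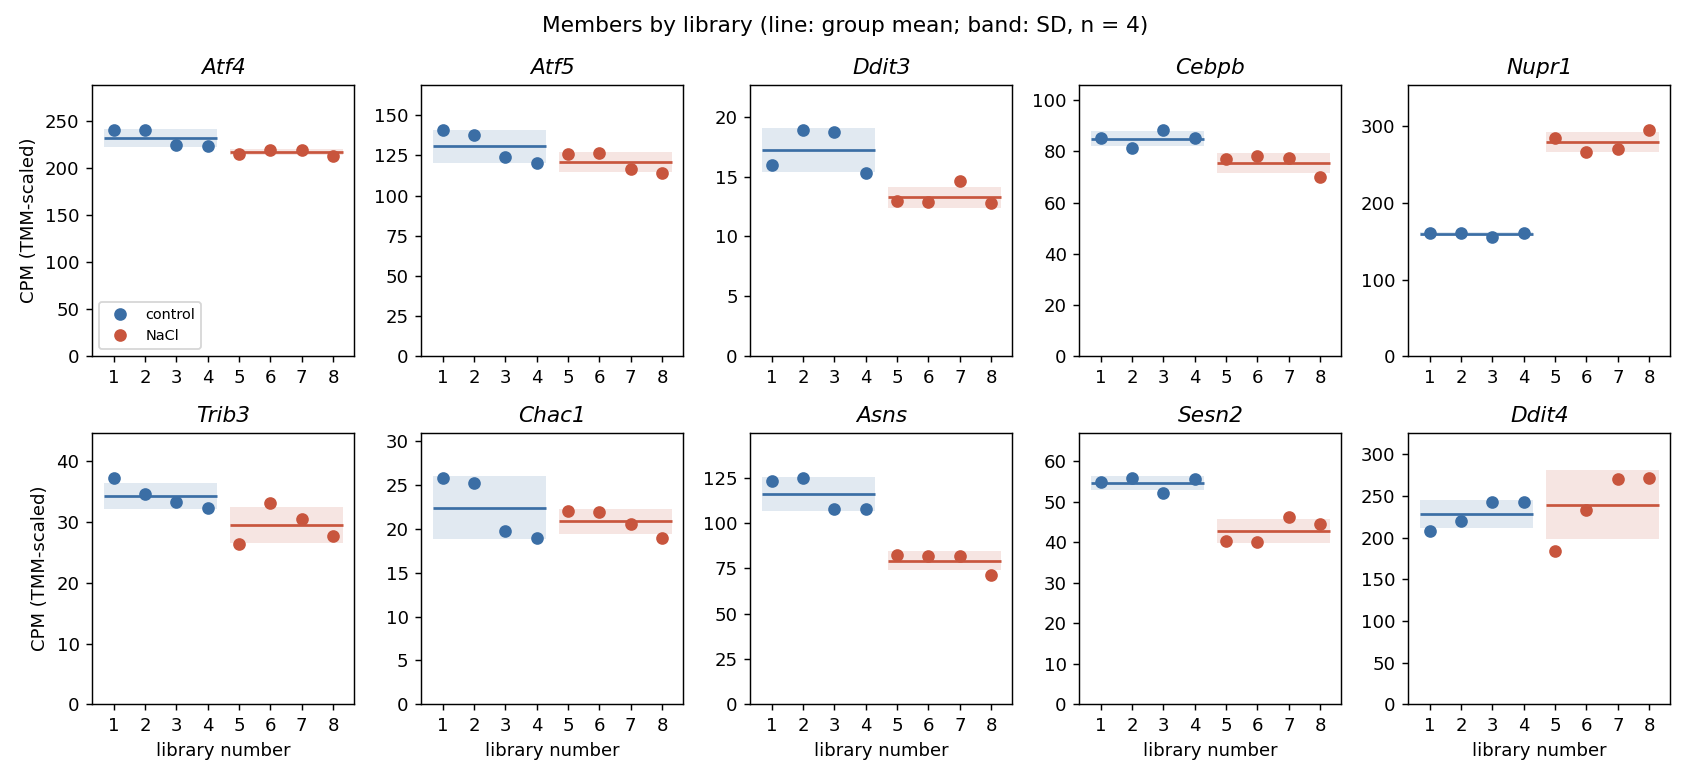
CPM (linear axes from 0, a separate scale for each gene) of the 10 members in each of the 8 libraries by library number, with control in blue and NaCl in red; lines are group means and bands are SD (n = 4). Nupr1 stands at 156 to 161 CPM in control and 266 to 295 CPM with NaCl, and Ddit4 goes up with the library number inside both groups.

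Atf4 (ENSMUSG00000042406, chr15:80255184-80257541) encodes the central transcription factor of the response. It had 240.0, 240.1, 224 and 223 CPM in control replicates 1 to 4 and 214, 219, 219 and 213 CPM in NaCl replicates 5 to 8. All NaCl libraries were lower, but the lowest controls and the highest NaCl libraries were only 1.60% of the control mean apart. The fall from 232 ± 9.48 to 216 ± 3.20 CPM (SD, n = 4 each) was -0.10 in log2 fold change (SE 0.035; adjusted p = 0.0367, edgeR). This call was lost with library totals in place of TMM scaling (adjusted p = 0.081), and without control replicates 1 or 2 or any single NaCl library (adjusted p from 0.0586 to 0.105).

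Atf5 (ENSMUSG00000038539, chr7:44812256-44816658) encodes a related factor that is also controlled by translation. Its values were 141, 138, 124 and 120.1 CPM in control and 126, 127, 117 and 114 CPM in NaCl libraries. Inside each group the 2 libraries with the higher numbers were the lower ones, and the groups overlapped. The log2 fold change of -0.11 (SE 0.053) was not past the threshold (edgeR adjusted p = 0.116). It was past it without control replicate 4 (log2 fold change -0.15, adjusted p = 0.0256), and with all libraries when the library number, centred within its group, was a covariate (-0.11, adjusted p = 0.00497). Atf5 shares 82 exon bases with Nup62 on the other strand, and the log2 fold change of Nup62 was -0.09 (adjusted p = 0.113).

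Ddit3 (ENSMUSG00000025408, chr10:127290774-127296288), the gene for CHOP, was the scarcest member per length, with 463 to 796 counts per library. Its controls had 15.97, 18.9, 18.7 and 15.3 CPM and its NaCl libraries 12.9, 12.8, 14.6 and 12.8 CPM. Every NaCl library was below every control, although NaCl replicate 7 lay below the lowest control by only 3.99% of the control mean. The level fell from 17.2 ± 1.84 to 13.3 ± 0.872 CPM (mean ± SD, 4 libraries each), or -0.37 in log2 fold change (SE 0.085; adjusted p = 0.00277, edgeR). Its exons share 68 bases with Mars1 on the other strand, where the log2 fold change was -0.03 (adjusted p = 0.607). A second annotated model of Ddit3 shares 105 bases with it on the same strand and had no row in the table.

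Cebpb (ENSMUSG00000056501, chr2:167688915-167690418) encodes C/EBP beta, a dimer partner of ATF4 and CHOP. It had 85.2, 81.2, 88.3 and 85.2 CPM in control and 76.9, 78.2, 77.4 and 69.9 CPM in NaCl libraries, with no overlap. It fell from 85.0 ± 2.93 to 75.6 ± 3.84 CPM (mean ± SD, 4 libraries each), or -0.17 in log2 fold change (SE 0.044; adjusted p = 0.00654, edgeR). Tmem189, on the other strand, overlaps 20.7% of the Cebpb exons, and its log2 fold change was 0.0029 (adjusted p = 0.968). The sources used here do not give the strandedness of the counting, so reads of such pairs cannot be told apart.

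Nupr1 (ENSMUSG00000030717, chr7:126623249-126630861) encodes a small stress-induced chromatin cofactor and was the member that rose. The controls had 161, 161, 156 and 161 CPM, a coefficient of variation of 1.61%, and the NaCl libraries had 285, 266, 271 and 295 CPM. The lowest NaCl library stood above the highest control by 65.6% of the control mean. The rise from 160.0 ± 2.58 to 279 ± 13.3 CPM (SD, n = 4 each) was 0.80 in log2 fold change (SE 0.037; adjusted p = 8.74e-11, edgeR). Nupr1 was also the only member past a test against a change of 1.5-fold, which 328 genes passed.

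Among the outputs, Asns (ENSMUSG00000029752, chr6:7675169-7693254) encodes asparagine synthetase and is a textbook ATF4 target. Its controls had 123, 125, 108 and 108 CPM and its NaCl libraries 82.3, 81.7, 81.7 and 71.6 CPM. The groups were apart by 22.0% of the control mean, the widest gap of any member that fell. Asns fell from 116 ± 9.34 to 79.3 ± 5.17 CPM (mean ± SD, 4 libraries each), or -0.55 in log2 fold change (SE 0.059; adjusted p = 9.24e-06, edgeR).

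Sesn2 (ENSMUSG00000028893, chr4:132492032-132510501) encodes a leucine-sensing inhibitor of the growth kinase complex mTORC1. It had 54.9, 55.8, 52.2 and 55.6 CPM in control and 40.4, 40.0, 46.2 and 44.6 CPM in NaCl libraries. All NaCl libraries were lower, by a gap of 10.99% of the control mean. Sesn2 fell from 54.6 ± 1.68 to 42.8 ± 3.07 CPM (mean ± SD, 4 libraries each), or -0.35 in log2 fold change (SE 0.053; adjusted p = 6.87e-05, edgeR).

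Trib3 (ENSMUSG00000032715, chr2:152337422-152344032) encodes a pseudokinase that is induced by ATF4 and CHOP and restrains both. It had 37.2, 34.6, 33.3 and 32.3 CPM in control and 26.5, 33.1, 30.6 and 27.8 CPM in NaCl libraries. NaCl replicate 6 exceeded the lowest control, so the groups overlapped. The fall from 34.4 ± 2.14 to 29.5 ± 2.96 CPM (SD, n = 4 each) was -0.22 in log2 fold change (SE 0.070; adjusted p = 0.0214, edgeR), with the call lost without control replicate 1 (adjusted p = 0.0623), NaCl replicate 5 (0.0694) or NaCl replicate 8 (0.06004).

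Chac1 (ENSMUSG00000027313, chr2:119351229-119354381) encodes an enzyme that degrades glutathione. Its values were 25.8, 25.2, 19.7 and 18.9 CPM in control and 22.0, 21.9, 20.5 and 19.01 CPM in NaCl libraries. The NaCl libraries lay inside the range of the controls, and the log2 fold change of -0.11 (SE 0.098) was not past the threshold (edgeR adjusted p = 0.448). Without control replicates 1 or 2 it was -0.03 and -0.05, without control replicates 3 or 4 it was -0.16 and -0.18, and without NaCl replicate 8 it was -0.06.

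Ddit4 (ENSMUSG00000020108, chr10:59949669-59951834) encodes REDD1, an inhibitor of mTORC1 that responds to low oxygen and to glucocorticoids as well as to ATF4. It had 208.4, 219.9, 243 and 243 CPM in control and 184, 233, 271 and 272 CPM in NaCl libraries. The NaCl group held both the lowest and the highest library, and the log2 fold change of 0.07 (SE 0.14) was not past the threshold (edgeR adjusted p = 0.742). With 1 library left out it ran from 0.0022 (without NaCl replicate 8) to 0.18 (without NaCl replicate 5; adjusted p = 0.0686), and it was 0.03 without control replicate 1 and 0.0043 without NaCl replicate 7.

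Libraries of both groups also changed along their number; the labels do not say what the number stands for. A single slope shared by both groups, fitted beside the group term, was past the threshold for 3 members falling (Chac1, Asns and Atf5) and 1 rising (Ddit4), beside 6.22% of all genes falling and 6.95% rising (13.2% in all). Chac1 had the steepest fall, at -0.12 log2 units per library number (SE 0.029; edgeR adjusted p = 0.00362). Asns and Atf5 had slopes of -0.07 each (SE 0.017 and 0.014; adjusted p = 0.00366 and 9.04e-04). Ddit4 rose by 0.13 per library number (SE 0.033; adjusted p = 0.0463), and its call was lost without any of control replicates 1, 2 and 3 or NaCl replicates 6 and 8 (adjusted p from 0.0795 to 0.125), and with no filter on low counts (0.0569). Without NaCl replicate 5 the Ddit4 slope was 0.09 (adjusted p = 1.79e-05). The Chac1 call was lost without control replicate 1 (0.0507) or 4 (0.0512) and the Asns call without NaCl replicate 8 (0.0714), while Trib3 passed as falling without NaCl replicate 5 (-0.08; 0.0249).

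Inside the control group alone, Chac1 (-0.17, SE 0.039; edgeR adjusted p = 0.0034), Atf5 (-0.08; adjusted p = 0.00333) and Asns (-0.08; adjusted p = 0.0186) fell along the number, beside 4.42% of all genes falling. Between libraries 1 and 4 this amounted to -26.5% for Chac1, -14.7% for Atf5 and -12.4% for Asns. Inside the NaCl group no member passed as falling (1.06% of all genes did). Ddit4 passed as rising there (0.19, SE 0.028; adjusted p = 0.0015), where 3.02% of all genes did, and stood 48.0% higher in library 8 than in library 5. A slope past the threshold in one group and not in the other does not show a difference. The difference between the slopes was tested and no member passed, beside 0.0927% of all genes. Ddit4 came nearest, with a slope steeper with NaCl by 0.11 (adjusted p = 0.492, edgeR).

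**Figure D2:**
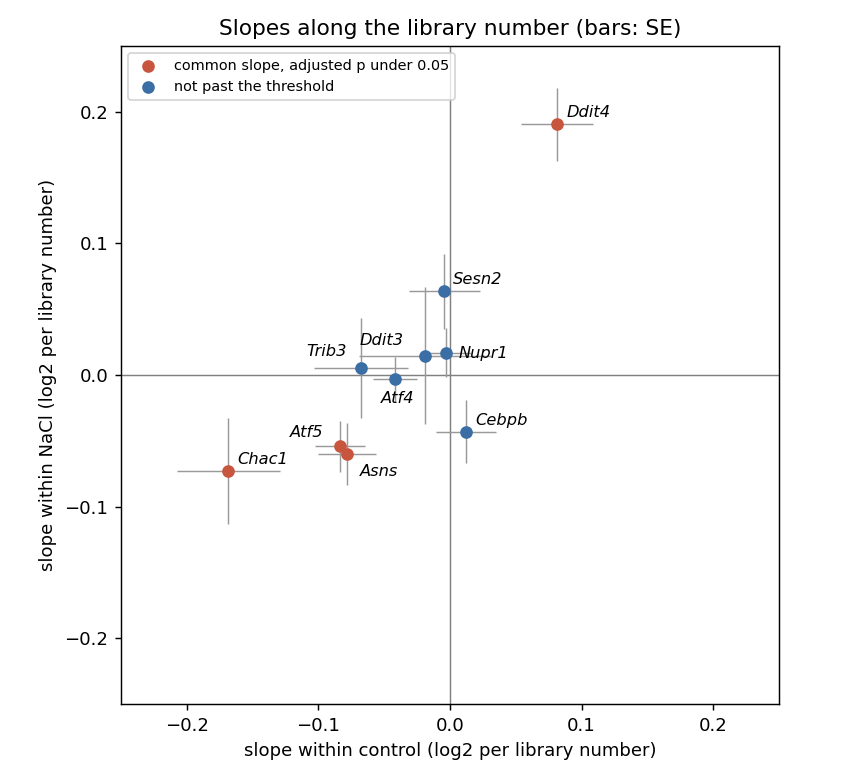
Slope of log2 expression per library number inside the control group (horizontal) and inside the NaCl group (vertical) for each member; bars are standard errors, and red points passed the test of a slope common to both groups. Chac1, Asns and Atf5 lie in the lower left corner with falls in both groups, and Ddit4 lies alone in the upper right.

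Because the control libraries have the numbers 1 to 4 and the NaCl libraries 5 to 8, a drift running from 1 to 8 and an effect of NaCl cannot be told apart without assuming a shape for the drift. With a linear drift in the fit, 24.1% of all genes passed between the groups (12.6% lower and 11.5% higher with NaCl), and 4 members did. Nupr1 stayed higher (log2 fold change 0.78; edgeR adjusted p = 1.01e-11), and Sesn2 (-0.47; 3.21e-04) and Asns (-0.27; 0.00844) stayed lower. Chac1 turned from -0.11 to 0.39 and passed as higher (0.0302). Ddit3 kept its size at -0.36 but not its call (0.118). Atf4 (-0.0076; 0.949), Trib3 (-0.08; 0.696) and Cebpb (-0.11; 0.346) also lost their calls, and Atf5 turned to 0.17 (0.0619) and Ddit4 to -0.48 (0.0703). With the number centred within each group instead, which removes the slope but no difference between the groups, 43% of all genes passed and 8 members did, the 7 of the fit with the group alone and Atf5. Over all 20 alternatives the adjusted p-values of Nupr1 ran from 4.24e-84 to 1.34e-04, the only member past the threshold in each. No other member passed the test against a 1.5-fold change.

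**Figure D3:**
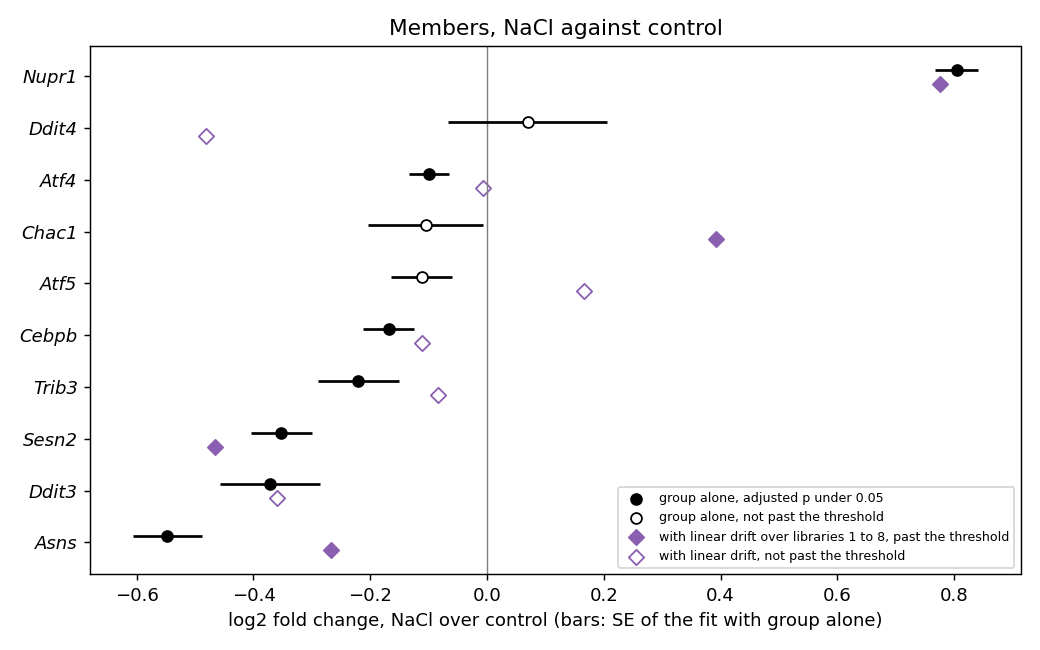
Log2 fold change of NaCl over control for the 10 members, from the fit with the group alone (circles, bars are SE) and from the fit with a linear drift over libraries 1 to 8 (diamonds); filled symbols had an adjusted p-value under 0.05. Nupr1, Sesn2 and Asns are filled on the same side of 0 in both fits, while Chac1, Atf5 and Ddit4 change side.

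Ddit4 was set beside a list of 16 genes induced by low oxygen, which also induces Ddit4. All 16 had a positive common slope and 9 of them passed, beside 6.95% of all genes rising, and the median common slope was 0.22 per library number, where Ddit4 had 0.13 and all genes tested a median of -0.0014. Relative to the control mean, Ddit4 stood at -0.13, -0.05, 0.09 and 0.09 log2 units in control replicates 1 to 4 and at -0.31, 0.03, 0.25 and 0.25 in NaCl replicates 5 to 8. The median of the list stood at -0.22, -0.09, 0.14 and 0.17 and then at -0.76, -0.16, 0.06 and 0.12. Both were lowest in NaCl replicate 5 and both went up with the number inside each group. Between the groups 1 of the 16 passed, P4ha1 (log2 fold change -0.35; edgeR adjusted p = 0.0325), which encodes a collagen prolyl hydroxylase. Its call was lost without any 1 of the control libraries or without NaCl replicate 6 (adjusted p from 0.0564 to 0.0943). P4ha1 was also among the few genes whose slopes differed between the groups (by 0.15, steeper with NaCl; edgeR adjusted p = 0.0115). With the linear drift in the fit 12 of the 16 were lower with NaCl, beside 12.6% of all genes. What moved these genes together with Ddit4 was not tested.

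**Figure D4:**
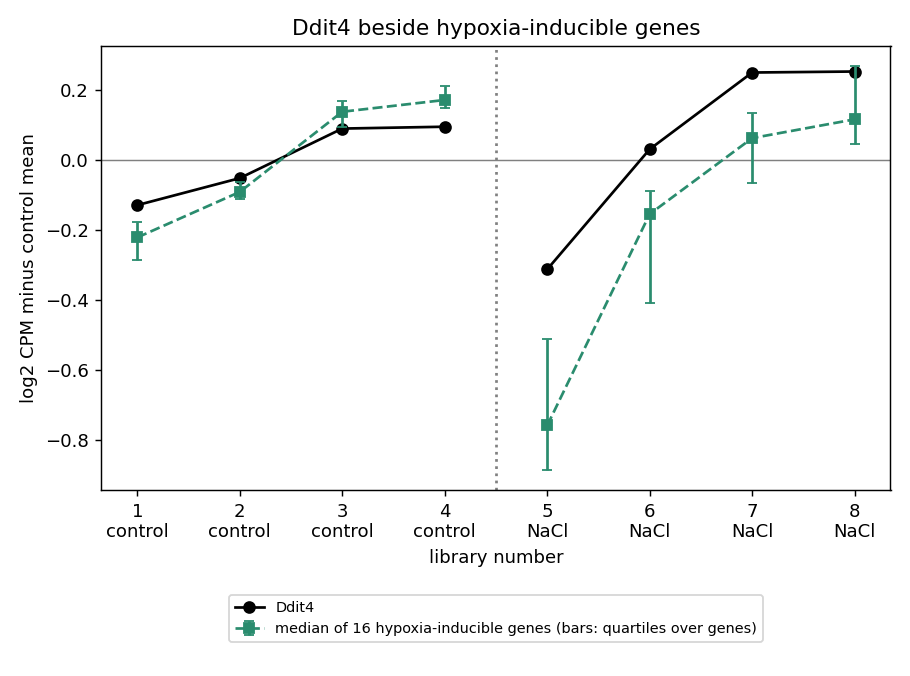
Log2 CPM minus the control mean by library number for Ddit4 (black) and for the median of 16 hypoxia-inducible genes (green, bars are quartiles over the genes). Both series climb inside each group and drop between control replicate 4 and NaCl replicate 5, to -0.31 for Ddit4 and -0.76 for the list.

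The other genes of the pathway were examined as lists, upstream first. Each count of a list stands against the 34.1% of all genes tested that passed between the groups, and a share near it is no result about the list. Of 17 genes for eIF2, its kinases, its exchange factor eIF2B and its phosphatases, 5 fell and 1 rose, a share near that of all genes, with a median log2 fold change of -0.02. Eif2s3x, an eIF2 subunit, fell by 0.37 on the log2 scale (edgeR adjusted p = 2.32e-06), and Eif2ak2, the kinase activated by double-stranded RNA, fell by 0.30 (7.60e-04). Gcn1, a coactivator of the amino acid sensing kinase, rose by 0.14 (0.00262). Ppp1r15a, the stress-induced phosphatase subunit that closes the feedback loop, was picked out after its values were seen and had a log2 fold change of 0.04 (adjusted p = 0.575).

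Of 20 further bZIP factors, many of which can pair with ATF4, CHOP or C/EBP beta, 6 fell and 3 rose, with a median of -0.05. Along the library number 5 of the 20 rose and 1 fell, beside 6.95% and 6.22% of all genes. With the linear drift in the fit 6 were lower with NaCl and none higher, beside 12.6% and 11.5% of all genes. Fosl1, an AP-1 subunit, fell from 18.8 ± 1.44 to 9.01 ± 1.99 CPM (log2 fold change -1.06; edgeR adjusted p = 4.21e-05), and Cebpd fell from 46.6 ± 2.13 to 32.2 ± 2.60 CPM (-0.53; 3.00e-06; SD, n = 4 each). Maf rose from 1.48 ± 0.153 to 2.98 ± 0.369 CPM (adjusted p = 3.02e-04). Xbp1, the factor of the IRE1 arm of the unfolded protein response, rose by 0.25 (5.10e-04).

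Among 24 ATF4 targets for amino acid uptake, serine synthesis and one-carbon metabolism, 9 fell and 4 rose, and the median was -0.18. Slc7a11, the cystine carrier, fell from 8.26 ± 1.33 to 4.41 ± 0.696 CPM (log2 fold change -0.90; edgeR adjusted p = 7.99e-05). Cth, which makes cysteine from cystathionine, fell by 0.57 (0.0149). Against these, the glycine carrier gene Slc6a9 rose from 31.8 ± 2.49 to 52.3 ± 3.94 CPM (0.72; 3.16e-07), and the neutral amino acid carrier gene Slc38a2 rose by 0.54 (3.84e-09). Along the library number 9 of the 24 fell, beside 6.22% of all genes, and none rose, with a median common slope of -0.04. With the linear drift in the fit the list's median between the groups turned to 0.06, with 7 genes higher and 2 lower, beside 11.5% and 12.6% of all genes.

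Aminoacyl-tRNA synthetase genes that respond to ATF4, with the tRNA exporter gene Xpot, made a list of 13, of which 10 fell and none rose (median -0.21). Nars fell by 0.34 on the log2 scale (edgeR adjusted p = 1.08e-05) and Tars by 0.32 (0.0041). Here too 5 genes fell along the library number, beside 6.22% of all genes. With the linear drift in the fit 1 gene was lower and 1 higher, a share called that is below the 24.1% of all genes.

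A list of 24 other outputs of ATF4 and CHOP, several of them shared with other lists, held 8 genes that fell and 5 that rose. Along the library number 4 of the 24 rose and 1 fell, beside 6.95% and 6.22% of all genes. With the linear drift in the fit 7 were lower with NaCl and 3 higher, beside 12.6% and 11.5% of all genes. Gdf15, a secreted stress hormone, rose from 63.9 ± 3.36 to 142 ± 7.78 CPM (SD, n = 4 each; log2 fold change 1.15; edgeR adjusted p = 1.55e-11). Fgf21, another stress hormone, rose by 0.52 (0.0138) at 2.31 ± 0.203 CPM in control. Pmaip1, which encodes the death-promoting protein NOXA, fell by 0.60 (0.00151), and Gadd45a fell by 0.41 (0.00272). For the other arms of the unfolded protein response 10 of 19 genes fell and 1, Xbp1, rose. The chaperone genes Hsp90b1 (-0.35; 5.19e-07) and Hspa5 (-0.34; 2.57e-07) fell by nearly the same amount.

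**Figure D5:**
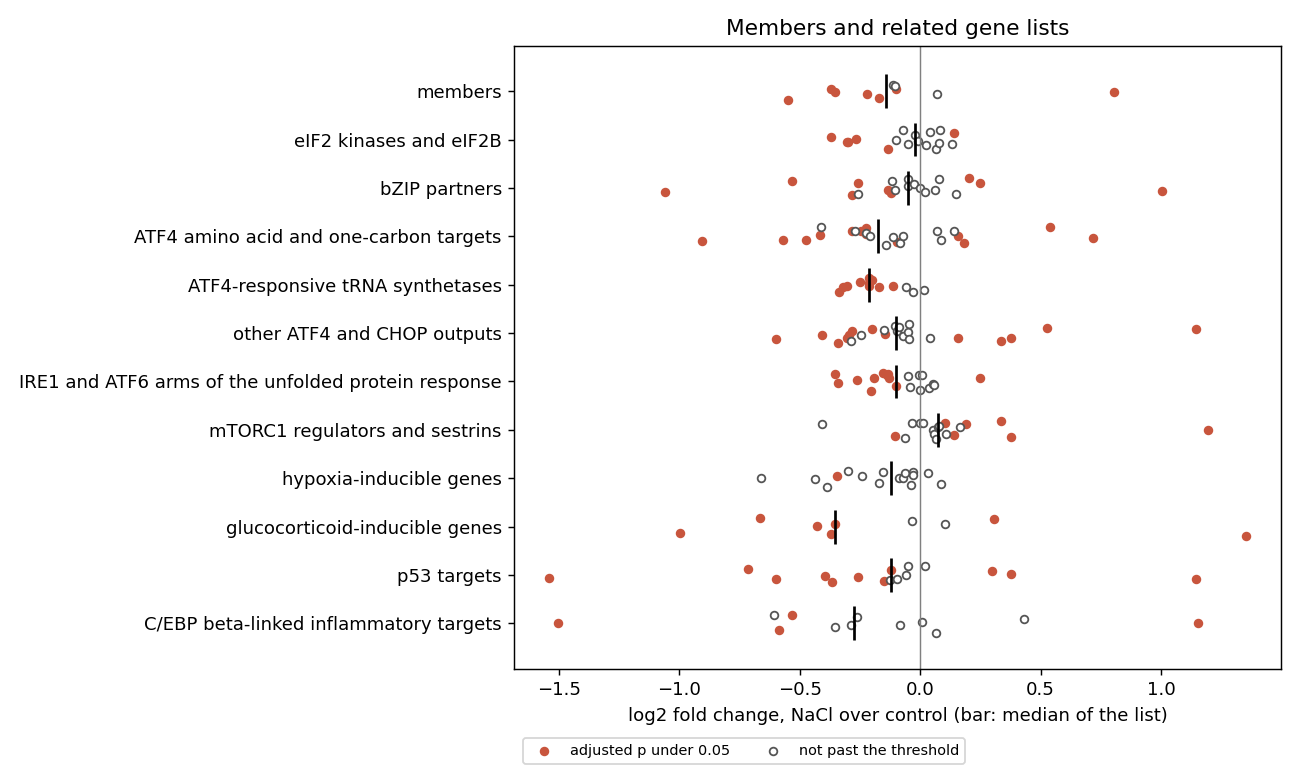
Log2 fold change of NaCl over control for the members and 11 related gene lists, 1 point per gene; red points had an adjusted p-value under 0.05 and black bars are list medians. Only the mTORC1 list has a median above 0 (0.08). The lowest medians are those of the glucocorticoid-inducible (-0.35), C/EBP beta-linked (-0.27) and tRNA synthetase (-0.21) lists, beside -0.14 for the members.

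Sesn2 and Ddit4 act on mTORC1, and of 19 other regulators of that complex 6 rose and 1 fell, a share called near the 34.1% of all genes, with a median of 0.08. Ddit4l, a paralogue of Ddit4, rose from 21.6 ± 1.94 to 49.5 ± 1.58 CPM (SD, n = 4 each; log2 fold change 1.19; edgeR adjusted p = 2.95e-10), where Ddit4 itself did not pass. Sesn1, a paralogue of Sesn2, rose by 0.38 (2.47e-04), against the fall of Sesn2. Rheb, the GTPase that activates mTORC1, fell by 0.11 (0.0322), and its call was lost without any library except control replicates 3 and 4. The difference between paralogues was not tested.

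Other inducers of these genes were also followed. Of 9 glucocorticoid-inducible genes 5 fell, Mt2 (from 82.3 to 41.2 CPM; edgeR adjusted p = 0.00813) and Mt1 (log2 fold change -0.66; 0.0242) most (the Mt1 call was lost without control replicate 2, 3 or 4 or NaCl replicate 6), and 2 rose, Dusp1 (1.35; 2.28e-12) and Sgk1 (0.31; 0.00183). Of 16 p53 targets 8 fell and 3 rose. Eda2r fell by 1.54 (1.01e-06) and Plk2 by 0.72 (3.65e-09), while Gdf15 and Sesn1, named above, rose. Among 12 inflammatory genes linked to C/EBP beta 3 fell and 1 rose, again near the 34.1% of all genes. Il1rn, the interleukin-1 receptor antagonist, fell from 10.6 ± 0.495 to 3.72 ± 0.212 CPM (-1.50; 5.78e-09), C3 fell by 0.58 (0.00238), and the chemokine gene Ccl2 rose by 1.15 (0.00582).

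Of the list genes named above, Eif2ak2, Maf, Xbp1, Slc7a11, Cth, Nars, Tars, Fgf21, Pmaip1 and Rheb lost their calls with the linear drift in the fit, at adjusted p-values of 0.0616 (Nars) to 0.974 (Tars). Maf (log2 fold change 0.95), Pmaip1 (-0.60) and Fgf21 (0.43) kept at least most of their size in that fit, while Eif2ak2 (-0.03), Xbp1 (0.07), Cth (0.08), Tars (0.0047) and Rheb (-0.02) came close to 0. Among genes still called, the drift brought Eda2r to -0.85 and Eif2s3x to -0.21. It moved Gadd45a to -0.83, P4ha1 to -0.70, C3 to -1.02, Mt1 to -1.32, Mt2 to -1.68, Sgk1 to 0.48 and Ccl2 to 2.01, farther from 0 than in the fit with the group alone.

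The genes most like Ddit3 and Atf4 were found by the root mean square difference of log2 CPM from the control mean over the 8 libraries, among 10101 genes whose log2 CPM averaged 3 or more. For Ddit3 these were Gas5 (difference 0.0441), Procr (0.0694) and Basp1 (0.085). Gas5, a snoRNA host transcript, had a log2 fold change of -0.40, where Ddit3 had -0.37. Atf4 was most like Srsf4 (0.0142), Ociad1 (0.0144) and Ubfd1 (0.0159), whose log2 fold changes were -0.10, -0.10 and -0.09. Srsf4 and Ubfd1 did not pass between the groups (edgeR adjusted p = 0.0533 and 0.112). Genes chosen by this difference have like fold changes through the choice itself.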

How the data were processed

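Raw counts per Ensembl gene for 8 libraries and values normalized by 1 factor per library (a signal equal to the count divided by 0.864 to 1.15) were deposited by the authors. The submitters' processing notes name Trim Galore 0.6.7, STAR, DESeq2 1.34.0 and mm10; the counting program and strandedness are not given in the sources used here. The members and gene lists were chosen with earlier results of these data known.

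In R 4.3.3 with edgeR 4.0.16, filterByExpr (minimum count 10) left 14024 of 15288 genes, removing 0.0191% of counts. TMM scaling and a robust quasi-likelihood fit gave log2 fold changes, with SE taken as the change over the root of F, and Benjamini-Hochberg adjusted p-values over all tested genes, with a threshold of 0.05. Slopes used the library number centred within its group, with 1 slope per group (4 residual degrees of freedom) or a common slope (5). CPM used TMM-scaled totals. Named genes were the members, the 2 highest and 2 lowest called genes of each list, and the 3 genes most like Ddit3 and Atf4. Alternatives included the library number as a covariate, centred within its group or as a linear drift from 1 to 8, DESeq2 1.42.0 and limma 3.58.1, voom or log2 of the normalized values plus 1. Replicate pairs differed by more than counting error. Nothing says that the libraries came from separate cultures, so p-values measure the spread between these libraries. Lengths and overlaps came from GENCODE M21 on GRCm38 and promoter sequences from RefSeq GRCm38.p6; 10 of 10 members matched. On simulated counts with 13894 genes run, 94.4% of genes changed by 0.35 and 100% of those changed by 0.55 log2 units between the groups were recovered; for a common slope of 0.07 the share was 45%, and for 0.12 it was 79%. Slopes inside 1 group were recovered less often: at 0.07 in 15% (control) and 12% (NaCl), and at 0.12 in 55% and 52%. Of the simulated calls, 5.83% were false between the groups, 7.46% for the common slope, 10.3% for the slope inside control and 8.57% for that inside NaCl. The simulated spread was estimated with the slopes in the fit. It left out drift along the number that stays in the group-alone fit of the real counts. Genes at the lowest levels were not changed. The shares recovered between the groups can therefore be too high for the real data.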

Additional observations from a re-analysis of the deposited data

Results flagged for a closer look

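Among the 20 sets of 4 values (10 members in each group), 4 held a library set apart from the remaining 3, and chance alone sets about 1 apart. NaCl replicate 7 stood at 14.6 CPM for Ddit3, above 12.8 to 12.9 CPM in NaCl replicates 5, 6 and 8. NaCl replicate 8 was low for Asns, at 71.6 CPM beside 81.7 to 82.3 CPM, and for Cebpb, at 69.9 CPM beside 76.9 to 78.2 CPM. Control replicate 3 was low for Nupr1, at 156 CPM, while the remaining controls were at 161 CPM. With the library concerned left out, the log2 fold changes were -0.42 for Ddit3, -0.50 for Asns, -0.13 for Cebpb and 0.79 for Nupr1. Each was still past the threshold (edgeR adjusted p = 0.00304, 4.28e-06, 0.0225 and 3.41e-09, in that order).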

How the results depend on the processing

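No paired analysis was possible because the groups share no replicate numbers. Between the groups, 4789 genes passed, 3145 at a threshold of 0.01 and 328 against a 1.5-fold change; of the members 7, 1 in the 1.5-fold test and 4 with the linear drift. Leaving out 1 library gave 4071 to 4634 genes and 5 to 8 members. The drift reversed Atf5 (0.17), Chac1 (0.39), Ddit4 (-0.48), Cth (0.076), Tars (0.0047) and Srsf4 (0.031). The common slope passed for 1847 genes, 964 at 0.01 and 949 to 1870 with 1 library left out (949 without control replicate 1, 1088 without control replicate 4, 1042 without NaCl replicate 8), and for 4 members, 2 to 5 with 1 left out (2 without control replicate 1 or NaCl replicate 8). Library totals gave 2 members with a slope inside NaCl, where TMM gave 1. Common slopes that did not pass changed sign for Nupr1 (-0.0030 with library totals; -0.014, without NaCl replicate 8, to 0.020 with 1 library left out), Ddit3 (-0.035 to 0.045; 0.0074 without control replicate 2 and 0.011 without NaCl replicate 8) and Cebpb (-0.022 to 0.0098). The causes were not tested. Of 200 refits of member fold changes, 173 kept direction and side of the threshold, as did 143 of 160 refits of member slopes and 684 of 760 for the other named genes. Ddit3 had the fewest counts of the members, at 463 to 796 per library.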
